A study of Mus musculus with 75 samples.

Results

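The 9 genes described here carry glucose into the cell, trap and split it, and export the lactate made from it: the glucose transporters Slc2a1 and Slc2a6, the hexokinases Hk1, Hk2 and Hk3, the regulator Pfkfb3, the last glycolytic enzyme Pkm, lactate dehydrogenase Ldha and the lactate exporter Slc16a3. They were picked by symbol, as 9 of 21051 genes in the table of the untreated and 2 h experiments and 9 of 21076 in the table of the 24 h experiment. They were chosen with earlier LPS results of these libraries known, so every LPS value, call and p-value printed for them, the comparisons of genotypes after LPS included, is a description of these libraries and no independent evidence. RNA was measured by Smart-seq2, a full-length cDNA method for small amounts of RNA, in 75 libraries labelled enteric glial cells, the glia of the gut wall's nerve plexuses. All mice carried a reporter transgene for eGFP, a green fluorescent protein; how the cells were isolated is not given in the sources used here.

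In the 2 h experiment, reporter mice received 1 injection into the abdomen of LPS (lipopolysaccharide from E. coli O111:B4, 2 mg/kg) or of PBS (phosphate-buffered saline), and myenteric plexus cells were taken after 2 h from small intestine and colon, with 4 libraries in each of the 4 groups. In the 24 h experiment the same LPS dose or PBS was given to reporter mice labelled Gpr37WT (below, labelled wild type) or Gpr37-/- (knockout), and myenteric cells were taken after 24 h. The small intestine gave 6 PBS and 4 LPS libraries labelled wild type and 4 PBS and 5 LPS knockout libraries. The colon gave 4 PBS and 5 LPS libraries labelled wild type and 5 PBS and 4 LPS knockout libraries. Untreated reporter mice gave 6 myenteric and 6 submucosal libraries from small intestine and 5 of each from colon. Ages are not given in the sources used here, and each group but 1 held both sexes in numbers that differed by at most 1; the knockout LPS colon group held 3 males and 1 female. At 24 h the labels name separate mice within each group, but 15 mice gave both a small intestine and a colon library. The regions are therefore not independent at 24 h. In the other experiments nothing says that libraries came from separate mice, so their p-values measure only the spread between libraries.

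Glycolysis turns glucose into pyruvate. Glucose enters through GLUT transporters, hexokinase traps it as glucose 6-phosphate, and phosphofructokinase commits it to the pathway; Pfkfb3 makes fructose 2,6-bisphosphate, the strongest activator of that step. Pyruvate kinase ends the pathway, and lactate dehydrogenase and the exporter MCT4 (Slc16a3) dispose of the pyruvate as lactate. LPS-activated macrophages are known for raising this pathway, and several of its genes are targets of the hypoxia-inducible factor HIF-1. Glia in the brain are known as lactate producers.

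Library totals ran from 1990744 to 7883251 counts at 2 h, from 2882539 to 33283346 at 24 h and from 2547296 to 9002546 in untreated mice. Levels are given in CPM, the usual unit of counts scaled to the library total, after TMM scaling (a correction for differences in composition between libraries), and are compared within a gene only, since they are not per length. Sox10, a defining glial gene, was present in every library. The targeted gene, Gpr37, had 18 counts in all over the 18 knockout libraries, 9 of them in 1 library, and 1229 over the 19 libraries labelled wild type. Of the 5 LPS colon libraries labelled wild type, however, those of mice 3, 5 and 8 had 2, 0 and 0 Gpr37 counts and those of mice 13 and 16 had 23 and 20. The small intestine library of mouse 3 had 0 counts and that of mouse 8 had 100. The colon libraries of mice 3 and 8 also stood apart in epithelial genes. The summed level of 10 epithelial markers was 9415 CPM in mouse 3, 15304 CPM in mouse 8 and 11932 CPM in the PBS colon library of knockout mouse 20, against 4.99 to 809 CPM in the other 15 colon libraries at 24 h. The colon differences at 24 h between LPS and PBS are therefore also given without these libraries for the members. The same is done for each other named gene of glucose metabolism whose call was lost without them, but not for marker genes. Summed neutrophil markers also moved with LPS at 24 h, and most of each LPS group's sum was Lcn2, a gene that epithelium and other cells also make in the acute-phase response. The sums were 3143 to 9321 CPM with LPS against 10.5 to 38.6 CPM with PBS in the small intestine labelled wild type and 484 to 9785 CPM against 2.38 to 153 CPM in the knockout. In the colon they were 4849 to 12900 CPM against 87.0 to 1325 CPM in the groups labelled wild type and 1081 to 6832 CPM against 5.46 to 126 CPM in the knockout. Without Lcn2 the 11 others summed to 21.8 to 898 CPM with LPS against 2.26 to 25.0 CPM with PBS in the small intestine labelled wild type and 15.5 to 1920 CPM against 0.661 to 15.5 CPM in the knockout. In the colon they summed to 13.4 to 2353 CPM against 1.06 to 153 CPM labelled wild type and 6.93 to 516 CPM against 0.243 to 60.2 CPM in the knockout. Summed fibroblast markers lay lower with LPS in mice labelled wild type, at 757 to 9346 CPM against 15156 to 24288 CPM with PBS in the colon and at 847 to 10090 CPM against 2078 to 13713 CPM in the small intestine, and 4 of 8 were called lower in each. Among further markers called, the macrophage gene Cd14 was higher in the small intestine labelled wild type (2.82 ± 0.64) and knockout (3.06 ± 0.73). Cx3cr1, also of macrophages, was lower in the former (-7.72 ± 1.81). In mice labelled wild type the glial gene Fabp7 was lower in small intestine (-3.84 ± 0.95) and colon (-2.67 ± 0.86). Glial Gfap was higher in that small intestine (2.58 ± 0.63). The part of these marker genes' sources in the results at 24 h was not tested. The share of counts from mitochondrial genes also differed at 24 h: it had a median of 15.4% in the 12 libraries of mice numbered 10 or below and of 4.57% in the 25 of mice numbered 11 or above. In the colon labelled wild type, 3 of the 5 LPS libraries (mice 3, 5 and 8, at 9.05% to 14.2%) and 0 of the 4 PBS libraries (2.97% to 10.4%) came from the lower numbers. In such bulk libraries, fewer cells of a type and less RNA per cell cannot be told apart.

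The promoters of the 4 members that passed the threshold in at least 1 LPS comparison are shown because they let the hypoxia response core be seen beside the expression values. The windows are the 250 bases upstream of RefSeq start sites in build GRCm38.p6; all 9 members matched, with 13 windows in all. Pfkfb3 (chromosome 2, 11471430 to 11554071, minus strand) has 2 windows, chr2:11502091-11502340 and chr2:11553930-11554179. Hk2 (chromosome 6, 82725025 to 82774454, minus strand) has 1, chr6:82774455-82774704. Slc2a1 (chromosome 4, 119108745 to 119137330, plus strand) has 1, chr4:119108495-119108744, and Slc2a6 (chromosome 2, 27021363 to 27028000, minus strand) has 1, chr2:27027999-27028248. Each is printed 5′ to 3′ on the gene's strand. Capitals mark ACGTG, one form of the core of the hypoxia response element, searched on both strands (CACGT on the printed strand is a match on the other strand).
Pfkfb3, start at 11502090: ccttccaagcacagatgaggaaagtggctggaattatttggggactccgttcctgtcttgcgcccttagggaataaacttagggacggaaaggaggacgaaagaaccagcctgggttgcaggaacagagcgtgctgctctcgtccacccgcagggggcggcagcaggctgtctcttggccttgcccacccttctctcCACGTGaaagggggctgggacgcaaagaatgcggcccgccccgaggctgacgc
Pfkfb3, start at 11553929: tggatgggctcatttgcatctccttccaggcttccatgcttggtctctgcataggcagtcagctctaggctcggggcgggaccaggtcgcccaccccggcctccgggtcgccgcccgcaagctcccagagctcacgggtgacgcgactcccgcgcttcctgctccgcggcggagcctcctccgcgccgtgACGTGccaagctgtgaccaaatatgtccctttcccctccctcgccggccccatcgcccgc
Hk2, start at 82774454: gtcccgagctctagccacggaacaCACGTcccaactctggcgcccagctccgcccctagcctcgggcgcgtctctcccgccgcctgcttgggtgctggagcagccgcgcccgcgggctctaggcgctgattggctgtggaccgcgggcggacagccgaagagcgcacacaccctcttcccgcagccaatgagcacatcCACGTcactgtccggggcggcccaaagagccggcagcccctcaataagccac
Slc2a1, start at 119108745: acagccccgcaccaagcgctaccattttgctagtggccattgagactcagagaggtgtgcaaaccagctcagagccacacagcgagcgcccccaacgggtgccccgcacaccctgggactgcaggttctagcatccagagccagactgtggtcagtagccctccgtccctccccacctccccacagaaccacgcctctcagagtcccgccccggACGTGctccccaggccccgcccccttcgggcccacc
Slc2a6, start at 27027998: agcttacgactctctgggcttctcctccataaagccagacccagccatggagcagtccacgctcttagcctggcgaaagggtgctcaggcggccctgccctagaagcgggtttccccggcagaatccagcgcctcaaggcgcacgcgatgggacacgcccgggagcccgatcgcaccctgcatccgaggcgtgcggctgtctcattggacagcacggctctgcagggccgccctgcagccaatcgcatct
ACGTG lay in 8 of the 13 windows, those of 7 of the 9 genes (Slc2a1, Hk2, Hk3, Pfkfb3, Ldha, Pkm and Slc16a3, but not Slc2a6 or Hk1), and in 16.6% of all 32851 RefSeq windows of this length. In Pfkfb3 the matches began 53 and 52 bases upstream of the one start, where both belong to a palindromic CACGTG, and 60 bases upstream of the other. In Hk2 they began 226 and 52 bases upstream, and in Slc2a1 36 bases upstream. CACGTG, which contains ACGTG on both strands, lay in windows of Pfkfb3 and Ldha and in 6.02% of all windows. A match is a description of letters and not a binding site.

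Pfkfb3, which drives phosphofructokinase through fructose 2,6-bisphosphate, was the 1 member that edgeR called higher with LPS in both regions at 2 h. Its 4 small intestine PBS libraries held 14.1, 14.4, 18.9 and 24.1 CPM and its 4 LPS libraries 117, 189, 209 and 222 CPM. In the colon the PBS libraries held 0.340, 6.06, 22.7 and 23.2 CPM and the LPS libraries 135, 179, 321 and 391 CPM. The groups did not overlap in either region: the lowest LPS library of each lay several times above its highest PBS library. The log2 fold change was 3.35 ± 0.67 (SE) in small intestine and 4.29 ± 0.71 in colon. In edgeR (quasi-likelihood fit, p-values adjusted by Benjamini and Hochberg's method across the 13107 genes tested), Pfkfb3 was the 1 member of 9 called (adjusted p under 0.05) as higher in each region, where 1.08% of all genes tested in the small intestine and 0.740% of those in the colon were called higher. No member was called lower, where 0.0229% and 0.0381% of genes were. The small intestine call was lost without PBS library 1, 2 or 4 (edgeR, adjusted p = 0.0764, 0.0731 and 0.0670), and the colon call in a fit of the 2 compared groups alone (4.31 ± 0.85; edgeR, adjusted p = 0.0665). Marker genes of other cells moved with LPS at 2 h too. Cd14, a co-receptor of LPS on the macrophage list, was called higher in both regions (4.63 ± 0.61 and 3.05 ± 0.58), and Lcn2 in the small intestine (4.97 ± 1.03). There summed neutrophil markers were 29.3 to 178 CPM with LPS against 12.8 to 21.7 CPM with PBS, without overlap, and summed erythroid markers 9.10 to 379 CPM against 313 to 3040 CPM; macrophage sums overlapped in both regions. Their part in the Pfkfb3 values was not tested. The test for a difference between the regions' responses gave a log2 difference of 0.93 ± 0.88 (colon minus small intestine).

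**Figure D1:**
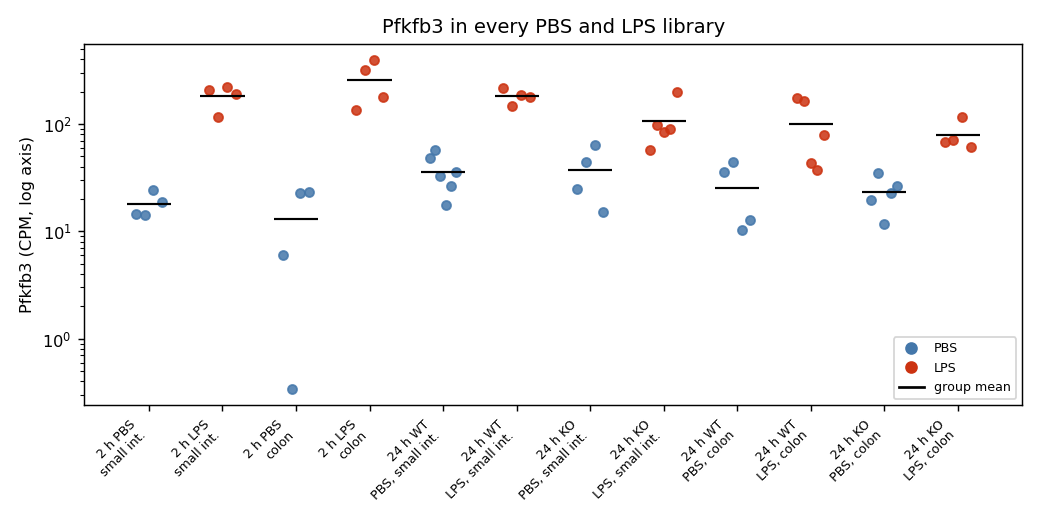
Pfkfb3 in CPM (log axis) in each of the 53 PBS and LPS libraries at 2 h and 24 h; each point is 1 library, bars are group means, WT stands for libraries labelled wild type and KO for knockout. The LPS libraries at 2 h sit between 117 and 391 CPM and all PBS libraries at 2 h at or below 24.1 CPM.

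At 24 h Pfkfb3 was still higher with LPS in mice labelled wild type. The 6 small intestine PBS libraries ran from 17.6 CPM through a median of 34.0 CPM to 56.7 CPM, and the 4 LPS libraries held 146, 177, 186 and 217 CPM. These groups did not overlap (log2 fold change 2.33 ± 0.45). In the colon the 4 PBS libraries held 10.3, 12.7, 35.5 and 43.8 CPM and the 5 LPS libraries 37.1, 43.6, 79.8, 165 and 175 CPM, with a log2 fold change of 1.97 ± 0.50. There the lowest LPS libraries, those of mice 5 and 3, lay within the PBS range. edgeR called both differences, and without the 3 colon libraries high in epithelial genes the colon value was 2.30 ± 0.53, also called. The colon call was lost without PBS mouse 22 or 24 (edgeR, adjusted p = 0.0585 and 0.0528) and in a fit of the compared groups alone.

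In knockout mice the Pfkfb3 values also lay higher with LPS, but edgeR did not call the differences. The knockout small intestine held 15.2, 25.1, 44.2 and 63.6 CPM with PBS and 57.7, 84.4, 89.9, 98.2 and 201 CPM with LPS; 1 LPS library lay below the highest PBS library (log2 fold change 1.52 ± 0.49). The knockout colon held 11.8, 19.7, 22.9, 26.4 and 34.8 CPM with PBS and 61.3, 67.7, 70.6 and 117 CPM with LPS, with no overlap (log2 fold change 1.77 ± 0.47, and 1.77 ± 0.50 without the libraries high in epithelial genes). DESeq2, run as an alternative, called both knockout differences, and edgeR called that in the colon when the division of the mouse numbers at 10 was a covariate (1.80 ± 0.45, adjusted p = 0.0430). The difference between the genotypes' Pfkfb3 responses (knockout minus wild type) was -0.81 ± 0.64 in the small intestine (edgeR, adjusted p = 1.00) and -0.20 ± 0.66 in the colon (adjusted p = 0.946). Neither passed.

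Slc2a1 (GLUT1), the transporter that supplies most cells with basal glucose, showed smaller differences than Pfkfb3. At 2 h the small intestine held 33.1, 33.8, 38.2 and 38.5 CPM with PBS and 42.2, 48.2, 49.9 and 67.1 CPM with LPS; the groups did not overlap, but the log2 fold change of 0.53 ± 0.38 was not called. In the colon at 2 h the groups overlapped (20.0 to 49.0 CPM with PBS, 21.4 to 77.1 CPM with LPS). At 24 h the colon labelled wild type held 13.7, 17.0, 20.8 and 22.3 CPM with PBS and 24.7, 30.0, 49.1, 63.1 and 76.6 CPM with LPS. That difference was called (log2 fold change 1.40 ± 0.38), with mice 3 and 8 the highest of the LPS libraries. Without the 3 colon libraries high in epithelial genes it was 0.90 ± 0.37 and was not called. In the small intestine labelled wild type (log2 fold change 0.63 ± 0.35) and in both knockout regions (0.38 ± 0.37 in small intestine, 0.49 ± 0.37 in colon, and 0.85 ± 0.35 there without those libraries) Slc2a1 was not called.

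Slc2a6 (GLUT6), a transporter of white blood cells and spleen known for its rise in LPS-activated macrophages, had lower values in knockout libraries than in those labelled wild type after LPS in both regions. In the colon labelled wild type at 24 h it held 2.22, 3.18, 3.88 and 7.27 CPM with PBS and 25.3, 28.4, 38.7, 55.7 and 99.8 CPM with LPS. The groups did not overlap and edgeR called the difference (log2 fold change 3.57 ± 0.94, and 3.88 ± 0.99 without the libraries high in epithelial genes). In the knockout colon it held 1.30, 1.78, 4.99, 5.46 and 6.76 CPM with PBS, and with LPS 2.17 and 4.44 CPM in mice 11 and 17 and 0 counts in mice 2 and 21 (log2 fold change -1.27 ± 0.88, and -1.47 ± 0.91 without the libraries high in epithelial genes, neither called). The PBS libraries of the small intestine labelled wild type ran from 2.64 through a median of 4.66 to 10.7 CPM and the LPS libraries held 13.2, 20.0, 36.2 and 40.9 CPM. These groups did not overlap either, but edgeR did not call the log2 fold change of 2.20 ± 0.79. DESeq2 called it (adjusted p = 0.0216), as did edgeR fitted on the 2 compared groups alone (2.27 ± 0.49, adjusted p = 0.0113). The knockout small intestine held 0, 0.846, 2.58 and 2.80 CPM with PBS and 2.38, 4.14, 4.29, 8.15 and 12.2 CPM with LPS (log2 fold change 1.95 ± 0.88, not called).

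Knockout libraries were compared with those labelled wild type under the same treatment. With LPS in the colon, Slc2a6 was lower in the knockout by a log2 fold change of -4.88 ± 1.01 (edgeR, adjusted p = 0.0375), each knockout library lying below each library labelled wild type. Hk2 was lower by -4.38 ± 1.03 (adjusted p = 0.0467). These were the 2 members called of 9 in a comparison that called 0.429% of 14903 genes; the LPS libraries are those that earlier results came from, so this is no independent evidence. With LPS in the small intestine Slc2a6 in the knockout (2.38 to 12.2 CPM) again lay below every library labelled wild type (13.2 to 40.9 CPM), but the difference of -2.15 ± 0.84 was not called (edgeR, adjusted p = 0.505). No member was called there, against 0.0134% of genes, nor with PBS in either region, where edgeR called 0 genes (0%) and DESeq2 called 58 (small intestine) and 74 (colon), none a member. At an unadjusted p under 0.05, edgeR counted 256 and 629 genes in these PBS comparisons.

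**Figure D2:**
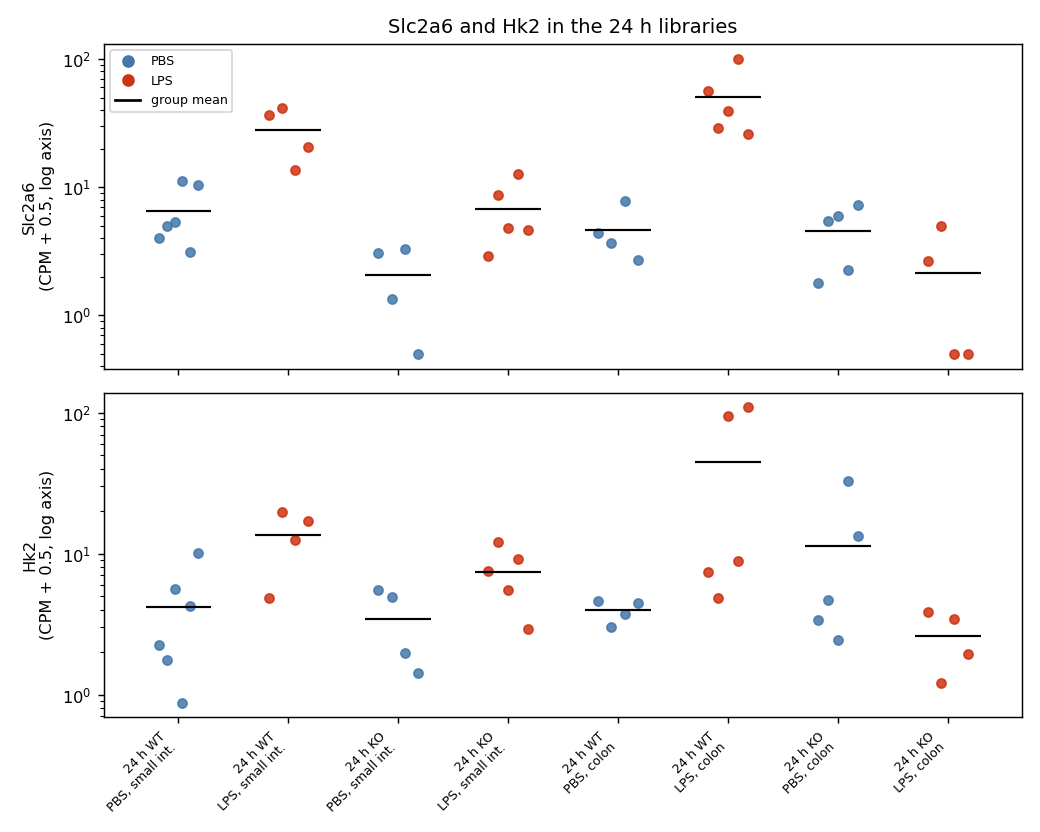
Slc2a6 (top) and Hk2 (bottom) in the 37 libraries at 24 h, as CPM + 0.5 on a log axis; points are libraries, bars group means, WT stands for libraries labelled wild type and KO for knockout. The 5 LPS colon libraries labelled wild type hold 25.3 to 99.8 CPM of Slc2a6 and the 4 knockout ones 0 to 4.44 CPM, while Hk2 is high in only 2 of those 5.

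These differences between genotypes were fitted again on fewer libraries. With only mice numbered 11 and above, which leaves out mice 3, 5 and 8, Slc2a6 was still called higher with LPS in the colon labelled wild type (3.35) and lower in the knockout with LPS (-4.28 ± 1.01, edgeR, adjusted p = 0.0303). Without the 3 libraries high in epithelial genes it was -5.18 ± 1.06 (edgeR, adjusted p = 0.0258). Without mouse 3 in both regions it was -4.95 ± 1.06 and just missed the threshold (edgeR, adjusted p = 0.0526). It also missed the threshold when knockout mouse 11 (adjusted p = 0.0900, edgeR) or mouse 21 (adjusted p = 0.0754) was left out, and in a fit of the 2 compared groups alone (-4.89 ± 1.22; edgeR, adjusted p = 0.763), which called no gene. Hk2 missed it in that fit too, and when mouse 3 or 8 labelled wild type or any 1 of the 4 knockout mice was left out. The test of the difference itself, the genotypes' colon responses to LPS, gave -4.84 ± 1.27 for Slc2a6 (edgeR, adjusted p = 0.164) and -6.03 ± 1.36 for Hk2 (adjusted p = 0.120), neither called; DESeq2 called both. edgeR called 0 of 14903 genes (0%) in each of the 4 tests of a difference between LPS responses at 24 h and 0 of 13107 (0%) in that at 2 h. At an unadjusted p under 0.05 it counted 578 and 2009 genes between genotypes in small intestine and colon, 1126 and 615 between regions in mice labelled wild type and knockout, and 452 between regions at 2 h. DESeq2 called 59, 340, 121, 72 and 44 genes in these 5 tests, with members only in the colon test between genotypes.

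At 2 h Slc2a6 was low and uneven. The small intestine held 0.602, 4.42, 5.36 and 5.75 CPM with PBS and 6.63, 10.1, 18.7 and 22.1 CPM with LPS, without overlap (log2 fold change 1.83 ± 1.67, not called). In the colon 1 of 4 PBS libraries (1.70 CPM) and 1 of 4 LPS libraries (6.47 CPM) had any counts, so no change could be read at this depth.

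The hexokinases, which phosphorylate glucose on entry, went different ways. Hk1, the housekeeping form, was present in every library and was called in no LPS comparison; its log2 fold changes ran from -0.06 ± 0.49 (2 h small intestine) to 0.64 ± 0.30 (24 h small intestine labelled wild type). In the 24 h colon without the libraries high in epithelial genes they were -0.03 ± 0.36 labelled wild type and 0.38 ± 0.33 in the knockout. Hk2, the inducible form of muscle, fat and activated cells, held 0.667, 1.36, 2.53 and 2.80 CPM with PBS and 6.10, 13.4, 22.0 and 32.4 CPM with LPS in the 2 h colon. Every LPS library lay above every PBS library, yet the log2 fold change of 3.30 ± 0.84 was not called by edgeR, while DESeq2 called it. In the 2 h small intestine it held 2.44, 5.08, 6.02 and 7.31 CPM with PBS and 8.06, 9.14, 16.1 and 27.8 CPM with LPS, also without overlap (1.54 ± 0.78, not called).

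At 24 h the Hk2 values of the colon labelled wild type split in a way that those of Slc2a6 did not. The 4 PBS libraries held 2.50, 3.23, 3.95 and 4.12 CPM. With LPS, mice 3 and 8 held 94.6 and 109 CPM and mice 16, 13 and 5 held 4.31, 6.92 and 8.41 CPM. The difference was called (3.69 ± 0.99); without the 3 colon libraries high in epithelial genes it was 0.92 ± 0.81 and was not called, and the knockout difference with LPS then fell short of the threshold too (-1.61 ± 0.82; edgeR, adjusted p = 0.414). In the knockout colon the PBS libraries held 1.94, 2.86, 4.19, 12.8 and 32.0 CPM, the last in mouse 20, and the LPS libraries 0.711, 1.45, 2.95 and 3.38 CPM (-2.34 ± 0.94, and -1.35 ± 0.77 without those libraries, neither called). Hk2 in the small intestine ran from 0.375 through a median of 2.76 to 9.65 CPM with PBS and held 4.36, 12.1, 16.6 and 19.2 CPM with LPS in mice labelled wild type (1.83 ± 0.83, not called). In the knockout small intestine it held 0.926, 1.46, 4.40 and 5.05 CPM with PBS and 2.40, 5.01, 7.06, 8.67 and 11.7 CPM with LPS (1.23 ± 0.90, not called).

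Hk3, the hexokinase of myeloid blood cells, was near 0 in most myenteric libraries at 24 h. In the 5 LPS colon libraries labelled wild type it held 49.5 CPM (210 counts) in mouse 3, 0.422 CPM (2 counts) in mouse 8 and 0 counts in mice 5, 13 and 16. The fitted log2 fold change of 4.83 ± 2.06 there was that of 1 library: without mouse 3 in both regions it was -1.55 ± 1.82, and without the libraries high in epithelial genes -4.73 ± 2.49. edgeR called none of these. DESeq2, fitted with all 5 of these LPS libraries kept, called Hk3 higher with LPS (5.00 ± 1.76, adjusted p = 0.0349). It also called Hk3 lower in the knockout with LPS (-5.70 ± 1.83, adjusted p = 0.0435). The summed macrophage markers were 3667 CPM in mouse 3 and 647 to 730 CPM in mice 5, 8, 13 and 16, against 343 to 1114 CPM with PBS. Of the 12 macrophage markers 1, the integrin gene Itgam, was called higher there (4.45 ± 1.44; edgeR, adjusted p = 0.04999). In the other LPS groups at 24 h Hk3 stayed at or below 1.80 CPM but for 1 knockout small intestine library at 7.61 CPM. Its difference in the knockout colon without the libraries high in epithelial genes was -1.27 ± 1.62, not called.

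Ldha, which converts pyruvate to lactate, and Pkm, which makes the pyruvate, were abundant in every library, and edgeR called them in no LPS comparison. Ldha in the colon labelled wild type held 341, 384, 483 and 502 CPM with PBS. With LPS it held 158, 506 and 509 CPM in mice 5, 13 and 16 and 1626 and 1984 CPM in mice 3 and 8 (log2 fold change 1.16 ± 0.46). DESeq2 called this difference (1.26 ± 0.46, adjusted p = 0.0457). Without the 3 libraries high in epithelial genes the Ldha value was -0.13 ± 0.37. Pkm in the same LPS group held 230 CPM in mouse 5, 600 and 637 CPM in mice 16 and 13 and 1242 and 1388 CPM in mice 3 and 8 against 370 to 591 CPM with PBS (0.69 ± 0.32, and -0.06 ± 0.29 without those libraries). Without mouse 5, edgeR called both Ldha (1.43, adjusted p = 0.0290) and Pkm (0.92, adjusted p = 0.0308) there. Fitted on the compared groups alone, edgeR called Pkm in the small intestine labelled wild type (0.66 ± 0.18, adjusted p = 0.0329). Hk2, Ldha and Pkm were thus all highest in mice 3 and 8 of the colon libraries at 24 h. In the knockout colon Ldha was 0.16 ± 0.45, and 0.59 ± 0.34 without those libraries, and Pkm was 0.43 ± 0.31 and 0.53 ± 0.27. In the knockout small intestine Ldha held 164, 436, 439 and 440 CPM with PBS and 440, 591, 757, 810 and 908 CPM with LPS (0.92 ± 0.46, not called). At 2 h Ldha (0.18 ± 0.29 in small intestine, 0.02 ± 0.29 in colon) and Pkm (0.01 ± 0.29 and 0.08 ± 0.29) lay close to 0.

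**Figure D3:**
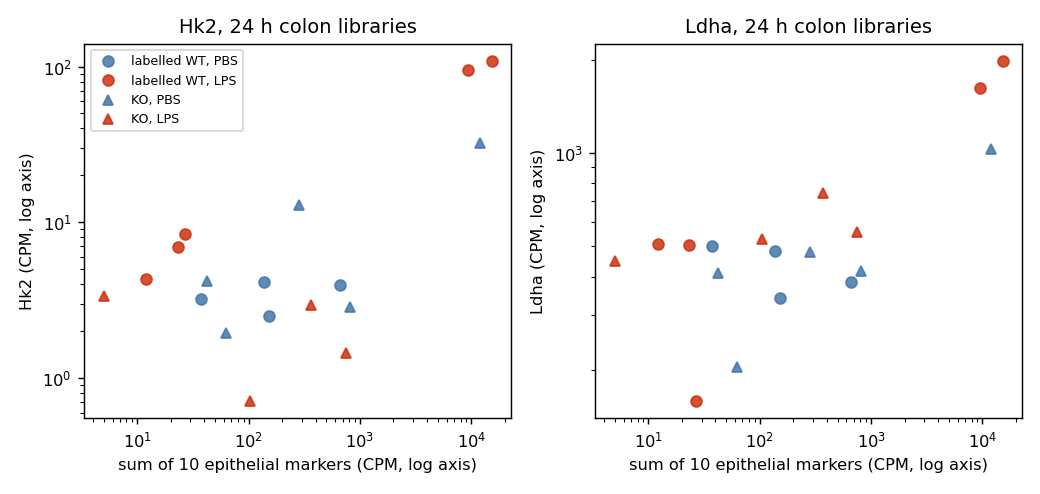
Hk2 (left) and Ldha (right) in CPM against the sum of 10 epithelial markers in CPM, both on log axes, in the 18 colon libraries at 24 h; colour gives the treatment and shape the genotype. The 3 libraries at 9415 CPM or more of epithelial markers hold 32.0 to 109 CPM of Hk2 and 1032 to 1984 CPM of Ldha, against 0.711 to 12.8 CPM and 158 to 744 CPM in the other 15.

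Slc16a3 (MCT4), the exporter of lactate in glycolytic cells, varied widely between libraries and edgeR called it in no comparison. At 2 h in the small intestine it held 0.975, 5.22, 5.51 and 8.84 CPM with PBS and 0.201, 9.28, 14.2 and 26.6 CPM with LPS (log2 fold change 1.28 ± 1.34), and in the colon the range was 0 to 23.1 CPM with PBS and 0.601 to 20.1 CPM with LPS. At 24 h its log2 fold changes ran from -0.77 ± 0.93 in the knockout colon to 1.23 ± 0.94 in the knockout small intestine. Without the libraries high in epithelial genes it was -0.22 ± 1.06 in the colon labelled wild type and -0.79 ± 0.97 in the knockout colon.

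In the small intestine labelled wild type at 24 h 1 member of 9 was called higher (4.18% of 14903 genes were) and none lower (2.99%). In the colon labelled wild type 4 were called higher (3.96%) and none lower (4.00%). With mice numbered 11 and above, Pfkfb3 and Slc2a6 were the 2 called higher there (4.29% of all genes were), as they were without the libraries high in epithelial genes (2.72%). None of the 4 passed without PBS mouse 24, and Slc2a1, Slc2a6 and Hk2 did not pass without PBS mouse 19, nor Hk2 and Pfkfb3 without PBS mouse 22. Hk2 also missed the threshold without LPS mouse 8, and Slc2a1 without LPS mouse 3. In the knockout small intestine none was called higher (0.530%) or lower (0.188%), and in the knockout colon none was called higher (0.637%) or lower (0.0805%). At an unadjusted p under 0.05 edgeR counted 2 members in each knockout region (11.5% of all genes in small intestine, 12.4% in colon), and DESeq2 called 1, Pfkfb3, in each (3.54% and 3.18% of all genes). The median log2 fold change of the 9 was 0.64, 1.40, 1.23 and 0.16 in these 4 comparisons in turn, beside -0.13, -0.03, -0.05 and -0.07 over all genes tested. Without the 3 libraries high in epithelial genes it was -0.03 in the colon labelled wild type and 0.38 in the knockout colon (beside -0.12 and -0.01 over all genes), the opposite order of the genotypes, and with mice numbered 11 and above it was 0.38 and -0.11 (beside -0.13 and -0.04). At 2 h it was 0.53 in small intestine and 0.55 in colon, beside -0.02 and 0.00. The 2 regional comparisons of a genotype share no libraries, but most of their mice gave both regions. Comparisons between genotypes share their LPS or PBS libraries with those above.

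**Figure D4:**
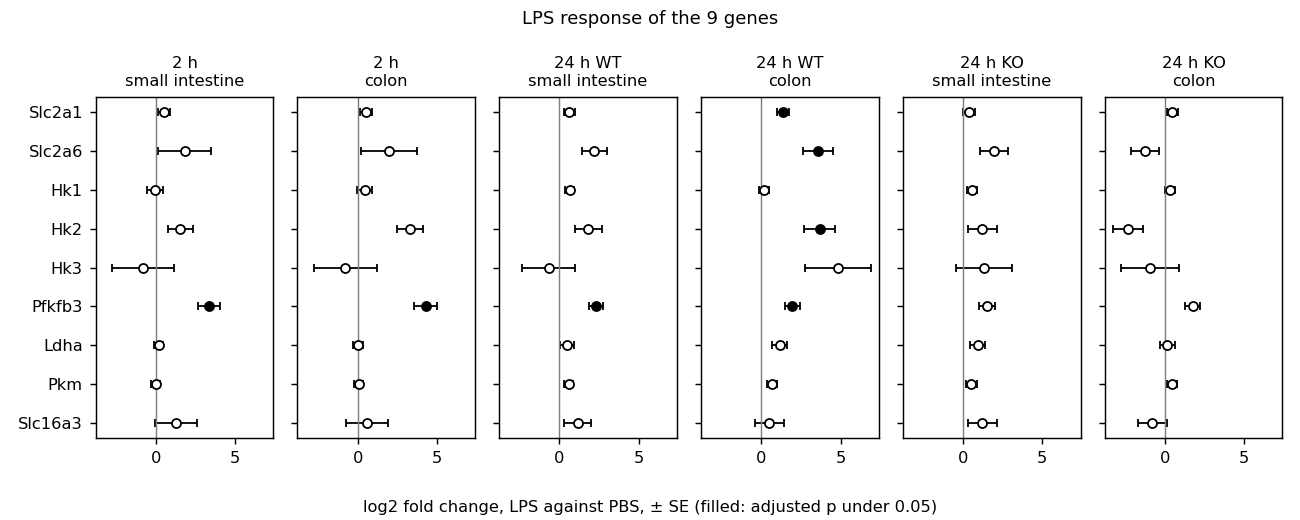
Log2 fold change of LPS against PBS for the 9 genes in the 6 LPS comparisons, with SE bars; filled points have an adjusted p under 0.05 (edgeR) and WT stands for libraries labelled wild type. Pfkfb3 is filled in 4 of the 6 panels, and Slc2a1, Slc2a6 and Hk2 only in the 24 h colon labelled wild type.

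Of 105 other genes of glucose metabolism, 92 could be tested at 2 h and 98 at 24 h. At 2 h, 1 was called, as lower in the small intestine (1.09%, where 0.0229% of all genes were called lower). It was Txnip, which restrains glucose uptake. Txnip fell from 723 to 1182 CPM with PBS to 291 to 622 CPM with LPS (log2 fold change -1.31 ± 0.25, edgeR, adjusted p = 0.00970). None was called higher there, where 1.08% of all genes were. None was called in the colon at 2 h by edgeR, where 0.740% of all genes were called higher and 0.0381% lower. At 24 h in mice labelled wild type, 6 rose (6.12%, where 4.18% of all genes tested rose) and 3 fell (3.06%, where 2.99% fell) in the small intestine, shares near those of all genes. Fitted on mice numbered 11 and above, the small intestine had 10 that rose (9.90% of 101, where 5.52% of all genes did) and 6 that fell (5.94%, where 4.17% did). In the colon 11 rose (11.2%, where 3.96% of all genes tested rose) and 2 fell (2.04%, where 4.00% fell). Without the 3 colon libraries high in epithelial genes, 5 rose (4.95% of 101, where 2.72% of all genes did) and 4 fell (3.96%, where 2.06% did), among them 5 of those 11 and both of those 2. With mice numbered 11 and above, 6 rose (5.94%, where 4.29% did) and 5 fell (4.95%, where 5.28% did), among them 6 of the 11 and 1 of the 2. In knockout mice, 1 fell in the small intestine (1.02%, where 0.188% of all genes did) and 1 rose in the colon (1.02%, where 0.637% did). The former was Bsg, the chaperone of the lactate transporters (-1.05 ± 0.23, edgeR, adjusted p = 0.0205). Bsg was also called lower in the knockout colon without the libraries high in epithelial genes (-0.84 ± 0.20, edgeR, adjusted p = 0.0312). The latter was Bnip3, a mitophagy receptor and HIF-1 target (1.22 ± 0.25, edgeR, adjusted p = 0.0102).

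Among the 20 genes of the HIF-1 list, Hif1a, the oxygen-regulated subunit itself, rose in both regions of mice labelled wild type. In the small intestine it ran from 39.3 to 80.4 CPM with PBS and from 127 to 356 CPM with LPS (1.70 ± 0.34; edgeR, adjusted p = 0.00143), and in the colon from 59.5 to 83.1 CPM and from 104 to 335 CPM (1.49 ± 0.37; adjusted p = 0.0125). Without the colon libraries high in epithelial genes the Hif1a value was 1.07 ± 0.38 and was not called (edgeR, adjusted p = 0.102). Egln2, a prolyl hydroxylase that marks HIF for degradation, rose as well (1.59 ± 0.30 and 1.40 ± 0.33), as did Bnip3 (1.21 ± 0.23 and 1.77 ± 0.26). P4ha1, a collagen prolyl hydroxylase, fell in the colon from 105 to 175 CPM with PBS to 0 to 19.3 CPM with LPS (-3.36 ± 0.74; edgeR, adjusted p = 0.00496). The fibroblast genes Col3a1 (-3.37 ± 0.64) and Col1a1 (-3.18 ± 0.73) fell in the same comparison, and their part in the P4ha1 value was not tested. So of 20 tested, 3 rose in the small intestine (4.18% of all genes did) and 3 rose and 1 fell in the colon (3.96% and 4.00% of all genes did). The list's median log2 fold change was -0.21 in small intestine and 0.40 in colon.

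Of the regulators, Pdk4, the kinase that shuts pyruvate out of the mitochondrion's pyruvate dehydrogenase, rose in both regions labelled wild type, from 1.33 to 9.61 CPM with PBS to 12.6 to 27.9 CPM with LPS in the small intestine (2.04 ± 0.64; edgeR, adjusted p = 0.0453) and from 0.878 to 7.33 CPM to 17.1 to 55.9 CPM in the colon (3.66 ± 0.77; adjusted p = 0.00337). Arrdc4, a relative of Txnip, rose in both too (2.42 ± 0.38 and 2.29 ± 0.43). Pdhb, a pyruvate dehydrogenase subunit, rose in the colon (0.75 ± 0.17). For the lists that follow, 4.18% of all genes tested rose and 2.99% fell in the small intestine, and 3.96% rose and 4.00% fell in the colon. Of the 9 pentose phosphate genes, G6pdx, the enzyme that opens that pathway, rose in both regions (1.31 ± 0.28 and 1.26 ± 0.31), and Pgd (1.52 ± 0.38) and Tkt (1.07 ± 0.34) rose in the colon. Without the colon libraries high in epithelial genes Pgd was 0.82 ± 0.33, Tkt 0.06 ± 0.26 and Pdhb 0.49 ± 0.15, none of them called. Of the 13 other glycolytic enzymes tested, Pfkl, the liver-type phosphofructokinase, fell in the small intestine (-1.01 ± 0.32) and Pgk1, phosphoglycerate kinase, rose in the colon (1.15 ± 0.33, and 0.21 ± 0.26, not called, without those libraries). Of 14 other transporters, Bsg fell in the small intestine (-0.95 ± 0.23; its colon value was -0.61, not called, but -1.11 ± 0.22 and called without the libraries high in epithelial genes and -0.96 ± 0.23 and called with mice numbered 11 and above) and Mpc1, of the mitochondrial pyruvate carrier, rose in the colon (0.83 ± 0.25, and 0.67 ± 0.27, not called, without them). Of 17 glycogen genes, Pygb, a glycogen phosphorylase, fell in the small intestine (-0.90 ± 0.24) and Gaa, the lysosomal glucosidase, in the colon (-1.27 ± 0.34). With mice numbered 11 and above Gaa was -1.08 ± 0.42 and not called (edgeR, adjusted p = 0.112), nor were Pgd, Tkt, Pdhb, Pgk1 and Mpc1 in the colon. No gluconeogenesis gene of 7 was called at 24 h in either region of mice labelled wild type.

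Likeness to each member was measured as the root-mean-square difference in log2 fold change over the 6 LPS comparisons, among 9811 genes. The nearest to Pfkfb3 were Map3k8 (0.273), a kinase of Toll-like receptor signalling, and Nfkbia (0.528), the NF-kB inhibitor. Map3k8 had log2 fold changes of 3.05 and 3.96 at 2 h in small intestine and colon, 2.50 and 2.23 at 24 h in those labelled wild type and 1.25 and 2.06 in the knockout. The nearest to Slc2a6 was Hk2, another member (0.787), followed by Pik3ap1 (0.876); Pik3ap1 (1.10) and Traf1 (1.13) were those nearest to Hk2. Ldha lay nearest to the glycolytic enzyme Pgk1 (0.0961) and to Spryd7 (0.142), and Pkm to the ribosomal protein genes Rps16 (0.0700) and Rpl8 (0.0716). Slc2a1 lay nearest to Rars (0.186) and Txlng (0.198), Hk1 to Nolc1 (0.106) and Hsd17b12 (0.114), Slc16a3 to Shq1 (0.217) and Tyw5 (0.429), and Hk3 to Mboat1 (0.836) and Perp (0.933). With the 24 h colon values taken without the libraries high in epithelial genes, 4 of these 18 neighbours were still among the 2 nearest: Map3k8 (0.454) and Nfkbia (0.550) to Pfkfb3, Pik3ap1 (0.605) to Hk2 and Hsd17b12 (0.117) to Hk1. The distance of Hk2 from Slc2a6 was then 1.37 and that of Pgk1 from Ldha 0.212.

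The untreated libraries played no part in the LPS comparisons, and the members were compared there between plexuses. The members were chosen with earlier results of these data known, so these p-values may not be free of that choice. Submucosal libraries held more Hk2, Hk3 and Ldha than myenteric ones in both regions. In the small intestine Hk2 ran from 0.454 through a median of 2.59 to 7.35 CPM in myenteric and from 17.5 through 20.0 to 35.8 CPM in submucosal libraries (log2 fold change 2.92 ± 0.70; edgeR, adjusted p = 0.00188). Hk3 ran from 0.151 through 2.25 to 6.42 CPM and from 15.7 through 32.2 to 59.5 CPM (3.61 ± 0.93; adjusted p = 0.00349, edgeR). Ldha ran from 257 through 346 to 486 CPM and from 750 through 819 to 1395 CPM (1.31 ± 0.23; adjusted p = 1.0e-04, edgeR). None of these 3 overlapped between the plexuses there. How many of all genes did not overlap was not counted.

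Hk1 was the member that fell: in small intestine it ran from 33.6 through 57.0 to 114 CPM in myenteric and from 11.5 through 18.7 to 41.9 CPM in submucosal libraries (-1.66 ± 0.34; edgeR, adjusted p = 5.1e-04), with some overlap. In the untreated small intestine, then, 4 of 9 members were called, in a comparison that called 43.5% of 14090 genes, a share close to that of the members. In the colon 4 of 9 were called beside 21.8% of genes. Hk2 held 0.435, 0.986, 1.21, 5.56 and 11.0 CPM in colon myenteric and 14.9, 19.7, 24.5, 27.3 and 33.3 CPM in submucosal libraries (2.62 ± 0.75; edgeR, adjusted p = 0.0160), without overlap. Ldha held 255, 289, 310, 350 and 586 CPM and 575, 669, 823, 869 and 872 CPM (1.09 ± 0.25; adjusted p = 0.00375, edgeR), with 1 myenteric library reaching into the submucosal range.

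Hk3 and Slc2a6, the forms known from myeloid cells, were each lowest in 1 submucosal colon library. Hk3 held 0, 0, 0.164, 2.10 and 2.74 CPM in colon myenteric libraries and 15.3, 16.5, 18.5 and 35.4 CPM in 4 submucosal libraries, with 0 counts in male 3 (3.95 ± 1.06; edgeR, adjusted p = 0.0111). Slc2a6 was found in 1 of 5 myenteric colon libraries (1.15 CPM) and held 6.22, 8.88, 9.78 and 10.8 CPM in 4 submucosal libraries and 0.380 CPM in male 3 (4.77 ± 1.23; edgeR, adjusted p = 0.00872). The summed macrophage markers of male 3 were 243 CPM, against 6943 to 11762 CPM in the other 4 submucosal colon libraries and 184 to 1017 CPM in the myenteric ones. Leaving male 3 out gave 4.27 ± 0.89 for Hk3 and 5.08 ± 1.18 for Slc2a6, both still called. With the replicate block Hk3 was 3.55 ± 1.24 and not called (edgeR, adjusted p = 0.0528), and Slc2a6 was called. In a fit of the 2 compared groups alone Hk3 was 4.01 ± 1.30 and not called (edgeR, adjusted p = 0.0587), and Slc2a6 did not pass the filter on low counts.

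Markers of other cells moved with these differences. Summed macrophage markers of the small intestine were 3798 to 22939 CPM in submucosal and 255 to 4018 CPM in myenteric libraries, and all 12 of the list were called higher. Epithelial markers were 2264 to 11422 CPM against 39.5 to 430 CPM there, all 10 called higher. Summed over 11 genes, glial markers were 234 to 717 CPM in submucosal and 3266 to 6100 CPM in myenteric small intestine, all 11 called lower. In the colon macrophage markers were called higher for 11 of 12, epithelial for 2 of 10 and glial lower for 6 of 11. Summed epithelial markers of the colon were 2817 to 11579 CPM (median 6103 CPM) in submucosal and 23.1 to 3841 CPM (median 146 CPM) in myenteric libraries. Its glial sums were 359 to 1695 CPM in submucosal and 2419 to 3989 CPM in myenteric libraries. Smooth muscle markers were called lower in submucosal libraries for 10 of 10 in small intestine and 9 of 10 in colon, neuron markers for 11 of 12 and 8 of 12, and endothelial markers for 8 of 8 and 1 of 8; Hk1 was lower in small intestine as well. The part of these markers in the members' differences was not tested.

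**Figure D5:**
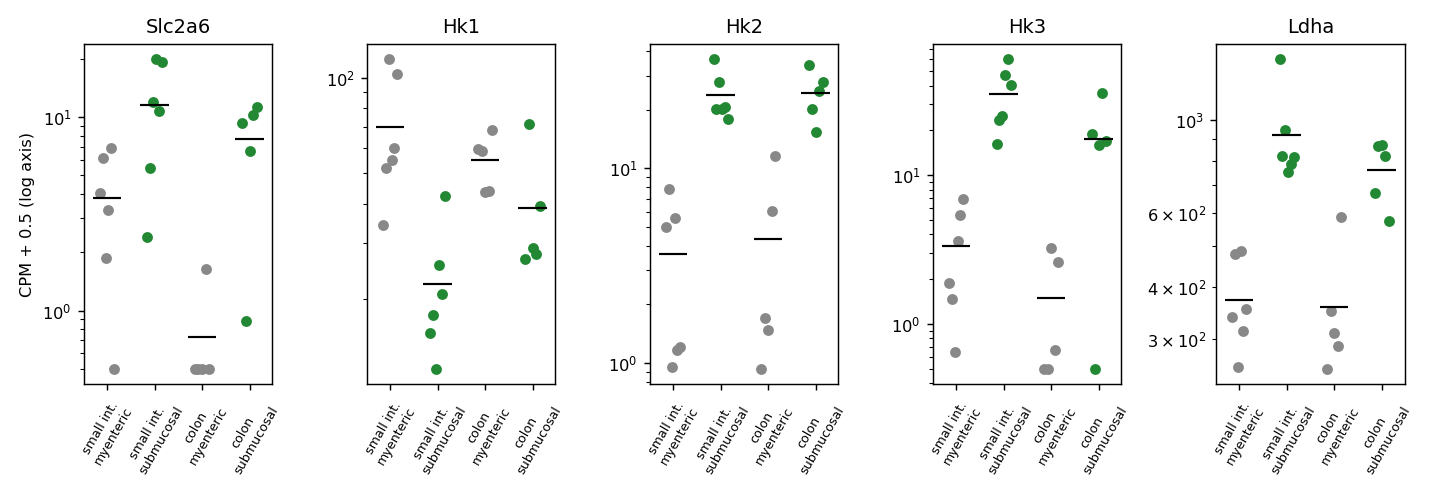
Slc2a6, Hk1, Hk2, Hk3 and Ldha in the 22 untreated libraries, as CPM + 0.5 on a log axis, by region and plexus; points are libraries (green, submucosal; grey, myenteric) and bars group means. Hk2 lies at 14.9 CPM or more in every submucosal library and at 11.0 CPM or less in every myenteric one.

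Slc2a1, Pfkfb3, Pkm and Slc16a3 were not called between plexuses in either region; for Pfkfb3 the log2 fold change was 0.27 ± 0.31 in small intestine and 0.13 ± 0.34 in colon, and for Pkm -0.01 ± 0.20 and 0.19 ± 0.22. Between colon and small intestine no member was called, where 3.19% of genes were in the myenteric and 5.18% in the submucosal plexus. At an unadjusted p under 0.05 edgeR counted 1 member in each (16.6% and 17.7% of all genes), and DESeq2 called 1 in the myenteric plexus, Slc2a6 (7.00% of all genes), and none in the submucosal. Slc2a6 in the myenteric small intestine ran from 0 through a median of 3.18 to 6.45 CPM, against 0 counts in 4 of the 5 colon libraries (-3.64 ± 1.17; edgeR, adjusted p = 0.0914). It was called without the colon library of female 2 (-7.18; edgeR, adjusted p = 0.0231), the 1 colon library with counts, which leaves that group at 0 and the fitted value no bound, and without small intestine female 3 (-3.93; edgeR, adjusted p = 0.0492). Before any LPS, Pfkfb3 ran from 24.7 through 33.6 to 44.6 CPM in myenteric small intestine and held 15.4, 24.2, 26.0, 37.2 and 39.9 CPM in myenteric colon, so that both regions overlapped.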

How the data were processed

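The authors deposited whole-number counts per gene for 75 libraries in 2 tables. Per the submitters' processing notes, Trim Galore 0.4.4, STAR 2.5.3, DESeq2 and the build GRCm38 were used; the counting program, the annotation and the use of strand are not given in the sources used here. RNA was extracted with a micro-column kit and libraries were made by Smart-seq2, per the labels' protocols. Groups were taken from the labels. One gene of the glial marker list is not reported here, and the list was summed and counted without it.

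Each experiment was fitted alone, with all its groups, by edgeR 4.0.16 (TMM, filterByExpr, quasi-likelihood F-test, two-sided, Benjamini-Hochberg over all genes tested); a gene is called at an adjusted p under 0.05. The SE is the log2 fold change over the square root of F. Genes passing the filter numbered 13107 at 2 h, 14903 at 24 h and 14090 in untreated mice; all 9 members passed each time. Scripts were tested on simulated data. The members and the gene lists were chosen with earlier results of these data known. All members were named, and of each pathway list the called genes, at most 4 by size per comparison. The genes most like a member came from those with a mean log2 CPM of at least 3 in both experiments, leaving out predicted genes. Alternatives were other size factors, DESeq2 1.42.0, no filter, covariates, blocks, fewer groups and left-out libraries. At 24 h the labels' mouse numbers tie regions to mice; the deviations of 15 same-mouse library pairs correlated at a mean r of 0.121, and at -0.0016 for the 582 other pairs, so a mouse block was run for the differences between regions. No 2 libraries of a group were alike within sampling noise. Sequences and gene positions came from RefSeq, GRCm38.p6.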

Additional observations from a re-analysis of the deposited data

Results flagged for a closer look

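Of 144 sets of values (9 genes in 16 groups), 19 held 1 library far from the others of its group on a log scale. Chance flags about 1 in 20 sets of normally distributed values. Several of the 19 sets held values at or near 0 counts, where that rate need not hold. The 19 are given as values only. For Slc2a6 the libraries were the highest of the 2 h LPS colon (6.47 CPM, the other 3 at 0) and of the 2 h PBS colon (1.70 CPM, the other 3 at 0), the lowest of the 2 h PBS small intestine (0.602 CPM, the others 4.42 to 5.75 CPM), the highest of the untreated myenteric colon (1.15 CPM, the other 4 at 0) and the lowest of the untreated submucosal colon (0.380 CPM, the others 6.22 to 10.8 CPM). For Hk3 they were the lowest of the untreated submucosal colon (0 counts, the others 15.3 to 35.4 CPM) and, at 24 h, the highest of the knockout LPS small intestine (7.61 CPM), the knockout LPS colon (0.723 CPM), the knockout PBS colon (1.78 CPM), the LPS colon labelled wild type (49.5 CPM) and the PBS colon labelled wild type (1.13 CPM), where the other libraries held at most 0.556 CPM.

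For Ldha the lowest library stood apart in the knockout PBS small intestine at 24 h (164 CPM, the others 436 to 440 CPM), in the LPS small intestine labelled wild type at 24 h (598 CPM, the others 905 to 929 CPM) and in the 2 h LPS small intestine (510 CPM, the others 767 to 821 CPM). Mouse 7, the lowest in Ldha in the knockout PBS small intestine, was also the lowest in Slc16a3 there (0.265 CPM, the others 5.82 to 7.70 CPM) and, in the knockout PBS colon, in Hk1 (22.3 CPM, the others 52.4 to 69.5 CPM). Slc16a3 was also lowest in 1 library of the LPS colon labelled wild type at 24 h (mouse 5, 0 counts, the others 5.51 to 15.8 CPM) and of the 2 h LPS colon (0.601 CPM, the others 15.2 to 20.1 CPM). Pkm was highest in mouse 2 of the knockout LPS colon (953 CPM, the others 546 to 586 CPM).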

How the results depend on the processing

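The number of members called stayed within 1.5 times the reported one in 128 of 147 alternatives that kept all or most libraries. With DESeq2 it was 2 in the 2 h colon, 2 in the 24 h small intestine labelled wild type, 1 in each knockout region, 2 for the genotypes' difference in the colon and 1 for the untreated myenteric regions. With the compared groups alone it was 0 in the 2 h colon, 3 and 1 in the 24 h small intestine and colon labelled wild type, 0 for the knockout with LPS in the colon and 2 for the untreated colon plexuses. In the 24 h colon labelled wild type it was 2 with mice numbered 11 and above and 2 without the libraries high in epithelial genes (an alternative chosen after seeing the data). In the knockout colon it was 1, Pfkfb3, with the mouse number division as covariate. For the knockout with LPS in the colon it was 1 with mice 11 and above, 1 with that covariate, 1 with no filter, 1 without the libraries high in epithelial genes and 0 without mouse 3. The cause of these changes was not tested.

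Leaving out each library in turn gave 0 to 1 members in the 2 h small intestine, 1 in each fit of the 2 h colon and of the 24 h small intestine labelled wild type, 0 to 6 in the 24 h colon labelled wild type, 0 to 2 for the knockout with LPS in the colon, 4 in each fit of both untreated plexus comparisons, 0 to 1 for the untreated myenteric regions and 0 in each fit of the others. In the 24 h colon labelled wild type, 0 was reached without PBS mouse 24 and 6 without LPS mouse 5. Pfkfb3 in the 2 h small intestine kept its log2 fold change (3.26 to 3.38) but missed the threshold without PBS library 1, 2 or 4.

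Over all genes, DESeq2 called 260 and 276 at 2 h against 144 and 102 by edgeR in small intestine and colon, 1859 and 2255 against 1069 and 1186 at 24 h in those labelled wild type and 527 and 474 against 107 and 107 in the knockout. The compared groups alone gave 63 in the 2 h colon, 1704 and 412 labelled wild type and 47 and 7 in the knockout. For the knockout with LPS in the colon the counts ran from 0 to 712 beside 64. Of the other genes of glucose metabolism at 24 h in mice labelled wild type, mice numbered 11 and above gave 10 higher (9.90% of 101, against 5.52% of all genes) and 6 lower (5.94%, against 4.17%) in the small intestine beside 6 and 3, and 6 (5.94%, against 4.29%) and 5 (4.95%, against 5.28%) in the colon beside 11 and 2; without the libraries high in epithelial genes the colon gave 5 (4.95%, against 2.72%) and 4 (3.96%, against 2.06%) (both chosen for these genes after seeing the data).

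The deviations of same-numbered libraries correlated at a mean r of 0.060 at 2 h and 0.093 in untreated mice, against -0.019 and -0.017 for other pairs. The lowest same-numbered pairs were at -0.048 and -0.096, so the numbers were not taken to pair the libraries, though 14 of 16 and 12 of 22 libraries correlated best with a library of their own number, a hint from the data and not the design. With the replicate block the members called were 1 and 1 at 2 h, 3 and 4 in the untreated colon and small intestine plexuses (Hk3 was not called in the colon) and 0 elsewhere; with the mouse as replicate block, 0 members and 2 and 0 genes were called for the differences between regions at 24 h.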
